A study of Mus musculus with 10 samples.

Results

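The genes described here are 46 genes of the lysosome in RAW264.7, a macrophage line of the mouse that came from a tumour. They were chosen by name and function from the 22186 genes of the expression table: 15 for the proton pump and its accessory subunits, 8 for cathepsins, 2 for other peptidases, 6 for glycosidases, 5 for lipid hydrolases and their activator, 7 for membrane proteins and cholesterol carriers, 2 for transcription factors and 1 for progranulin. Cathepsin K and the pump subunit d2 were left out of the 46 by that rule and appear among the other lysosomal genes. Poly(A) RNA was sequenced from wild-type cells kept in medium (5 libraries) and from wild-type cells kept in the same medium with doxorubicin (5 libraries), each for 24 h in minimum essential medium with fetal bovine serum. The drug, an anthracycline poison of topoisomerase II, is used in the series in relation to the secretory state of senescent cells. The dose is given in 3 ways: the sample titles have 10 nM, the design text has 100 nM and corrects the titles to it, and the dilution in the treatment protocol works out at 1000 nM. Dimethyl sulfoxide is named as the solvent for the doxorubicin cultures only. All libraries come from 1 cell line, and whether those of a group stem from independent cultures is not stated, so that each p-value reflects only the spread among these samples, which may be technical.

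Lysosomes are the acidic organelles in which cells break down engulfed and worn-out material, and macrophages are rich in them. The vacuolar ATPase pumps protons into the lumen, which lets the cathepsins and other acid hydrolases work. Many lysosomal genes respond to the related transcription factors TFEB and TFE3, which bind E-box sequences near gene starts and are held in the cytoplasm by mTORC1, a kinase complex that docks on the lysosome.

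The sequence that TFEB and TFE3 are known to prefer can be read near the start sites of some of these genes. RefSeq promoters on the GRCm38.p6 assembly, from 250 bases before to 50 bases after each start, were matched by symbol for 38 of the 46 genes. Atp6v1b2, Atp6v1c1, Atp6v1g1, Atp6v1h, Ctsb, Ctsh, Asah1 and Npc1 had no match. The 8-letter palindrome TCACGTGA was found in the promoters of 7 of the 38 genes (18.4%), against 304 of 27025 genes with a promoter in the table (1.12%). Its core, the E-box CACGTG, was found in 13 of 38 (34.2%), against 8.09% of all genes, and TCACGTG, which lies inside the palindrome and holds the core, in 12 of 38 (31.6%, against 4.29%). TCACGTGA with a G before it and a C after it was in 0 of the 38, against 0.37% of all genes, and the like string with tcatgtga in the middle in 0, against 0.189%. CTTATCAG, which reads GATA on its other strand, was in 1 of 38 (2.63%, against 0.847%). All strings were searched on both strands. The 30-base windows around TCACGTGA, which show how the bases next to the palindrome differ between genes, are given 5′ to 3′ on the strand of the gene, with the palindrome in capitals.
Atp6v0d1, chr8:105566050-105566079, minus strand, first base of the palindrome 4 bases before the start: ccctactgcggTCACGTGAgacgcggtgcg
Atp6v0e, chr17:26676387-26676416, plus strand, base 3 after the start: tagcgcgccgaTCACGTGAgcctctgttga
Atp6v1a, chr16:44139373-44139402, minus strand, 132 bases before the start: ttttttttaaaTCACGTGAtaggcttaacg
Ctsa, chr2:164833749-164833778, plus strand, 13 bases before the start: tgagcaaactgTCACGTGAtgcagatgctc
Ctsa, chr2:164833766-164833795, plus strand, base 5 after the start: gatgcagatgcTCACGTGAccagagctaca
Ctsd, chr7:142387908-142387937, minus strand, 99 bases before the start: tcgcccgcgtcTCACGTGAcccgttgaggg
Gla, chrX:134601215-134601244, minus strand, 228 bases before the start: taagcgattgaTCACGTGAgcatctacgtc
Gla, chrX:134601182-134601211, minus strand, 195 bases before the start: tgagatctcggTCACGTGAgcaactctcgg
Mcoln1, chr8:3500462-3500491, plus strand, 46 bases before the start: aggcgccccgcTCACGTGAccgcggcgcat
The 250 bases before the start follow for Ctsd, the gene with the highest level among the 46, and for Atp6ap1, the 1 gene whose level differed between the groups by the main test (both described below), again with the palindrome in capitals.
Ctsd, chr7:142387828-142388077, minus strand: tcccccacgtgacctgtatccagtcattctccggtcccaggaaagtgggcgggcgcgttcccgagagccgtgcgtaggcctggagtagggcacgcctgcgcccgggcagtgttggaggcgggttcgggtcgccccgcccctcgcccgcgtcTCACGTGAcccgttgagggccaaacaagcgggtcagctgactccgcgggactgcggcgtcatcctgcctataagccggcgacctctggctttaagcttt
Atp6ap1, chrX:74296847-74297096, plus strand: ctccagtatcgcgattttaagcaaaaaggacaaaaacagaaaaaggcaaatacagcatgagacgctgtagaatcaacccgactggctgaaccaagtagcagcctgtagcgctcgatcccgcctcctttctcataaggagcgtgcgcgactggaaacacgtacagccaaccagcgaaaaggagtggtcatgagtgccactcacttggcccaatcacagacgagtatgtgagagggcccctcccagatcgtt
The Ctsd stretch has 67.2% G and C, 27 CpG pairs and 2 E-boxes, and the Atp6ap1 stretch has 51.6% G and C, 14 CpG pairs and 0 E-boxes. A match of letters is a description of the sequence and does not show that a factor binds there.

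Levels are given as FPKM, a measure of fragments scaled by transcript length and by the library's mapped fragments, so that genes of different length can be set side by side. Library totals of FPKM ran from 338293 to 356111, and the 46 genes made up 2.01% to 2.72% of that sum in medium and 2.19% to 2.81% with doxorubicin. Replicate number 1 differed from the other numbers in both groups: its lysosomal share was 2.72% and 2.81%, against 2.01% to 2.32% in the libraries of numbers 2 to 5. Both number 1 libraries were the highest of their group for 28 of 45 lysosomal genes (62.2%), where this held for 21.0% of all genes tested, and the lowest of their group for 4 of 45 (8.89%, against 35.0%). The 4 were Atp6v1b2, Ctsl, Scarb2 and Tfe3. Of 10 macrophage markers, 8 had a mean of at least 1 FPKM, among them Adgre1, Csf1r and Lyz2, while Mrc1 and Mertk lay below it. Summed macrophage markers ran from 953 to 1109 FPKM in medium and from 1037 to 1229 with doxorubicin. The 19 markers of T, B, NK, neutrophil, dendritic, fibroblast, epithelial, endothelial and erythroid cells summed to 0.281 to 0.834 FPKM in medium and 0.488 to 1.16 with doxorubicin, and 9 of them were listed at 0 in every library. In bulk RNA, a change in the number of cells and a change in RNA per cell cannot be told apart.

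Proteases and sphingolipid activators were the most abundant of the 46 messages. In medium, Ctsd, which encodes the aspartic protease cathepsin D, stood at 968 ± 394 FPKM (SD, n = 5), ahead of the cathepsin Z gene Ctsz at 777 ± 35.4, the cathepsin B gene Ctsb at 703 ± 153 and Psap, the precursor of the saposins that help to degrade sphingolipids, at 618 ± 182. Within each medium library Ctsd lay above Ctsb and Ctsb above Psap. The place of Ctsz is not settled, since it lay above Ctsd in medium 2 and 3 and below Psap in medium 1. Ctsd owes much of its SD to library 1 (1667 FPKM, against 736 to 859 in the other 4). Lgmn, the gene of the asparagine-specific protease legumain, followed with 351 ± 51.6 FPKM, close to Grn, the progranulin gene (329 ± 44.8), the cathepsin S gene Ctss (328 ± 27.3) and Lamp1, the gene of a heavily glycosylated protein of the lysosomal membrane (317 ± 20.4). At the low end were Tfeb (7.27 ± 3.81), the acid sphingomyelinase gene Smpd1 (4.42 ± 1.20) and the cathepsin H gene Ctsh (0.833 ± 0.525), whose mean over all libraries of 0.961 FPKM kept it just below the limit of 1 FPKM for testing. Thus 45 of the 46 genes were tested.

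**Figure D1:**
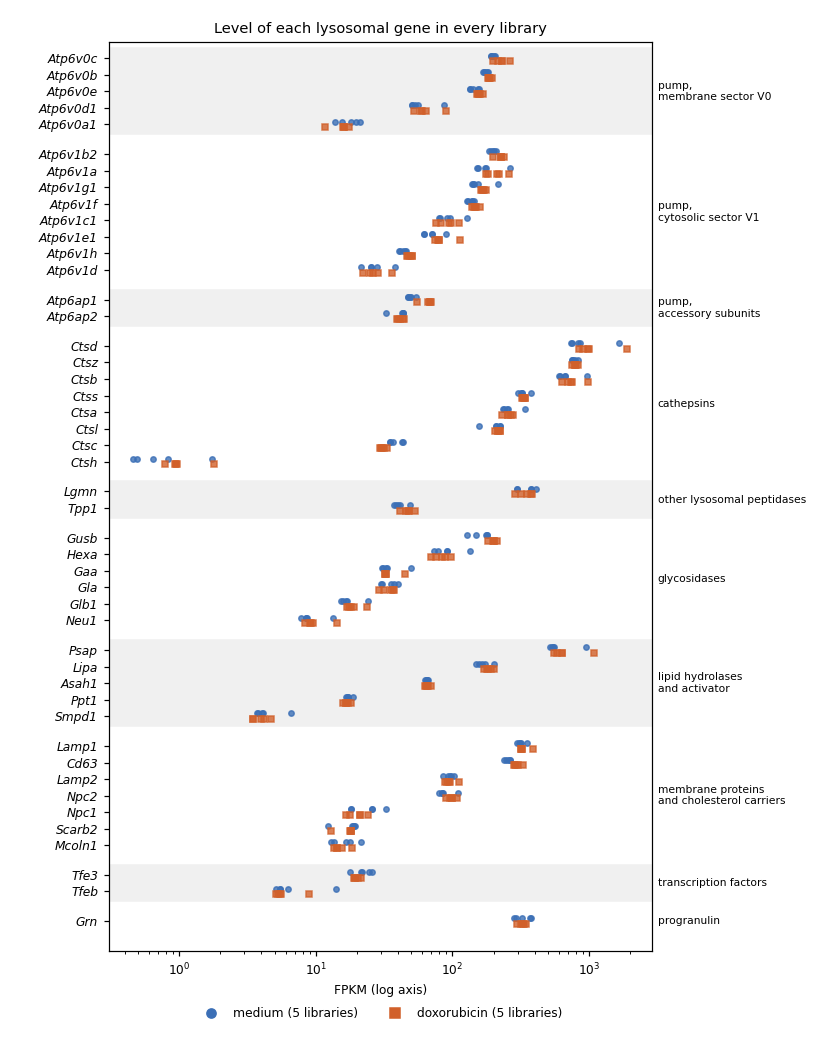
FPKM of each of the 46 genes on a log axis, in 5 medium libraries (circles) and 5 doxorubicin libraries (squares), grouped by role and ordered by mean level within a role. Levels span from under 1 FPKM for Ctsh to 1906 FPKM for Ctsd in doxorubicin library 1, and for most genes the 2 groups overlap.

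For several pump subunits 1 of the alternative isoforms made up most of the message. In the membrane sector V0, the ring subunit gene Atp6v0c was at 196 ± 6.42 FPKM in medium, Atp6v0b at 174 ± 5.47 and Atp6v0e at 144 ± 10.3, while Atp6v0d1, whose product joins the ring to the central stalk, was at 59.6 ± 15.6. The large a subunit, which forms the proton path, has several genes: Tcirg1 (subunit a3) was at 80.4 ± 10.3 FPKM, Atp6v0a1 at 17.6 ± 3.02 and Atp6v0a2 at 8.11 ± 1.83, with no overlap between the libraries of these 3 genes. In the cytosolic sector V1, the genes of the nucleotide-binding subunits A and B2, Atp6v1a and Atp6v1b2, were at 184 ± 46.8 and 197 ± 9.33 FPKM. Those of the rotor subunit D, Atp6v1d (27.5 ± 6.24), and of the regulatory subunit H, Atp6v1h (43.2 ± 2.11), were the lowest of this sector. Isoform genes known from kidney, testis or brain were near 0: Atp6v1b1 and Atp6v1g3 were listed at 0 in every library, the mean of Atp6v1e2 was 0.0448 FPKM, and that of Atp6v1g2 was 0.501.

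The comparison asks whether the lysosomal messages differed between cells with doxorubicin and cells in medium. On the log2(FPKM + 1) scale used for all differences below, 1 of the 45 tested genes passed the main test, limma with group as the only term and a Benjamini-Hochberg adjusted p under 0.05 over 9869 genes. That gene was Atp6ap1, which rose, and 0 of the 45 fell. Over all genes 0.689% were called higher and 0.223% lower, and a count of 1 among 45 is too small to set apart from those shares. Since libraries with the same replicate number deviated together, a second fit took the replicate number as a block. It called 10 of the 45 higher and 3 lower, where 7.81% of all genes were called higher and 13.7% lower. The 10 were Atp6ap1, Atp6v0c, Atp6v1a, Atp6v1b2, Atp6v1e1, Atp6v1h, Ctsd, Tpp1, Psap and Cd63, and the 3 were Atp6v0a1, Ctsc and Npc1. Without both number 1 libraries and with no block, 5 were higher (2.87% of all genes) and 1 lower (2.77%), and adding the block gave 19 higher (10.2%) and 3 lower (18.4%). With numbers 2 and 3, and 4 and 5, merged into 1 block each, 17 were higher (12.2%) and 2 lower (19.9%). The blocked count fell when another number was left out: 9 higher and 1 lower without number 2, 3 and 3 without number 3, 2 and 0 without number 4, and 2 and 1 without number 5, each with 8 libraries. The count over all 9869 genes fell as well, from 771 higher and 1356 lower with every number. It was 727 and 822 without number 2, and 430 and 870 without number 3. Without number 4 it was 264 and 373, and without number 5 it was 254 and 374. Among the 13 calls of the blocked fit, Atp6ap1 alone kept its call without each of the 5 numbers in turn. Every change was small. Differences of the 45 ran from -0.31 to 0.41, with a median of 0.08, against -0.03 over all genes tested. The median was 0.019 without doxorubicin 1 and 0.12 without medium 1. The estimate was above 0 for 29 of the 45 and for 4263 of 9869 genes. Within replicate numbers, 16 of the 45 were higher in 5 of 5 numbers (13.2% of all genes were) and 3 were lower in 5 of 5 (23.1%).

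**Figure D2:**
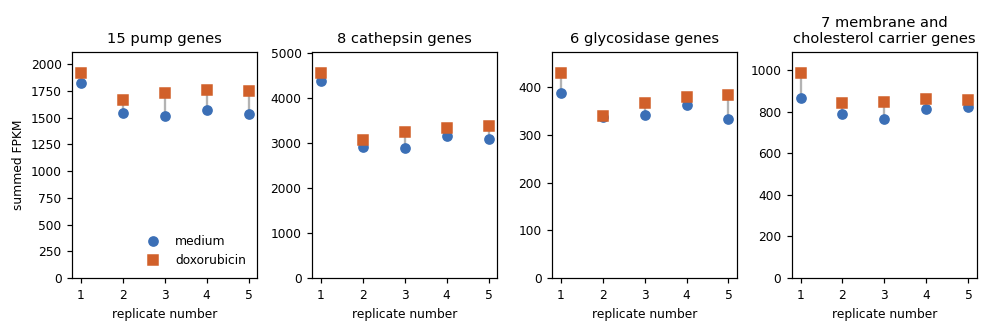
Summed FPKM of the pump, cathepsin, glycosidase and membrane protein genes in each library, by replicate number, with medium as circles, doxorubicin as squares and a line joining libraries of 1 number. Each doxorubicin sum lies above the medium sum of its number, and number 1 lies above the others in each panel.

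Of the 15 pump genes, 6 rose and 1 fell with the block, beside 7.81% of all genes higher and 13.7% lower. These 6 were among the 10 lysosomal genes higher with the block. Atp6ap1 encodes Ac45, an accessory subunit needed for the assembly and trafficking of the pump. It stood at 53.7, 49.4, 48.7, 47.2 and 47.5 FPKM in medium libraries 1 to 5 and at 66.5, 70.2, 55.4, 68.2 and 68.8 in doxorubicin libraries 1 to 5. All 5 doxorubicin libraries lay above all 5 medium libraries, which was so for 2.73% of all genes, and doxorubicin 3 lay below the other 4. The log2 difference was 0.41 (SE 0.07, limma adjusted p = 0.0354; 0.00525 with the replicate block), a 1.33-fold rise. Within numbers 1 to 5 the differences were 0.30, 0.50, 0.18, 0.52 and 0.53. The call was lost without medium 2, 3, 4 or 5 (limma adjusted p of 0.0612, 0.0741, 0.119 and 0.117) and without doxorubicin 1, 2, 4 or 5 (0.0750, 0.0943, 0.101 and 0.0978), and it held without medium 1 (0.0167), without doxorubicin 3 (0.0211) and in the blocked fits without any 1 number (0.00150 to 0.0310). Atp6ap2, the gene of the other accessory subunit, known also as the prorenin receptor, had means of 41.1 ± 4.69 and 41.4 ± 2.10 FPKM (0.02, limma adjusted p = 0.945).

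In the cytosolic sector V1, 4 of 8 genes rose with the block (beside 7.81% of all genes) and 0 of 8 passed without it. Atp6v1a, the gene of the catalytic subunit A, was at 266, 155, 151, 177 and 173 FPKM in medium 1 to 5 and at 260, 177, 182, 219 and 213 with doxorubicin. Number 1 stood above the rest in both groups and was the 1 number without a rise (-0.03, against 0.19, 0.27, 0.31 and 0.30 in numbers 2 to 5). The log2 difference over all libraries was 0.21 (SE 0.16, limma adjusted p = 0.530; 0.0357 with the block), and without both number 1 libraries it was 0.27 (0.0898; 0.00171 with the block). The blocked call was lost without number 2, 3, 4 or 5 (limma adjusted p of 0.0712, 0.101, 0.128 and 0.129), and the estimate without the block was 0.13 without doxorubicin 1 and 0.35 without medium 1. Atp6v1b2, the gene of the non-catalytic nucleotide-binding subunit B2, was at 185, 210, 201, 198 and 193 FPKM in medium and at 199, 225, 238, 227 and 227 with doxorubicin. It was higher in 5 of 5 numbers, by 0.10 to 0.24, while the groups overlapped through doxorubicin 1 (0.18 over all libraries, SE 0.06, limma adjusted p = 0.189; 0.0236 with the block). Its blocked call was lost without number 3, 4 or 5 (0.0764, 0.0942 and 0.103).

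Atp6v1e1, the gene of a subunit of the outer stalks, was at 89.5, 70.8, 71.4, 62.1 and 62.0 FPKM in medium and at 113, 74.8, 79.4, 78.1 and 79.6 with doxorubicin (0.25, SE 0.13, limma adjusted p = 0.347; 0.0174 with the block). Atp6v1h was at 40.7, 41.4, 45.4, 43.5 and 45.001 FPKM in medium and at 48.9, 46.5, 50.4, 50.6 and 47.3 with doxorubicin (0.17, SE 0.06, limma adjusted p = 0.160; 0.0312 with the block). The blocked call of Atp6v1e1 was lost without number 4 or 5 (0.0743 and 0.0775), and that of Atp6v1h without number 2, 3, 4 or 5 (0.0652 to 0.119). Without the block, the Atp6v1e1 estimate was 0.14 without doxorubicin 1. The Atp6v1h groups did not overlap, and 2.73% of all genes were higher with no overlap. Those of Atp6v1e1 overlapped, since medium 1 lay above doxorubicin 2 to 5. Of the other 4 genes of the sector, Atp6v1f (0.11) and Atp6v1g1 (0.10) had estimates above 0 and Atp6v1c1 (-0.04) and Atp6v1d (0.01) near 0, with blocked adjusted p from limma between 0.101 and 0.898. Atp6v1g1 differed by -0.28 in number 1 and by 0.10 to 0.28 in numbers 2 to 5, and it was called higher without both number 1 libraries (0.20, adjusted p = 0.0314).

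In the membrane sector V0, 1 of 5 genes rose and 1 fell with the block, and 0 of 5 passed without it. Of all genes, 7.81% rose and 13.7% fell with the block. Atp6v0c, the gene of the proton-carrying ring subunit, was at 205, 191, 193, 200 and 191 FPKM in medium and at 264.71, 199, 230, 214 and 231 with doxorubicin. It was higher within each number, by 0.06 in number 2 and by 0.36 in number 1 (0.21 over all libraries, SE 0.08, limma adjusted p = 0.189; 0.0286 with the block), and the groups overlapped only at doxorubicin 2. Its blocked call was lost without number 3, 4 or 5 (0.0814, 0.0635 and 0.110). Atp6v0a1, the a1 isoform of the proton path, went the other way, from 21.2, 13.7, 15.6, 18.0 and 19.7 FPKM in medium to 17.5, 11.6, 15.7, 16.02 and 16.2 with doxorubicin. It was lower in 4 of 5 numbers (-0.18, SE 0.13, limma adjusted p = 0.508; 0.0497 with the block), and its call was lost in the blocked fits without number 1, 2, 4 or 5 (0.0532, 0.112, 0.128 and 0.164). Its isoform Tcirg1 (subunit a3) rose with the block, from 80.4 ± 10.3 to 92.8 ± 12.9 FPKM (0.20, limma adjusted p = 0.350; 0.0231 with the block). Atp6v0b, Atp6v0d1 and Atp6v0e had estimates of 0.10 to 0.14, were each higher in 5 of 5 numbers and missed the threshold with the block (limma adjusted p of 0.0953, 0.0809 and 0.0654).

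**Figure D3:**
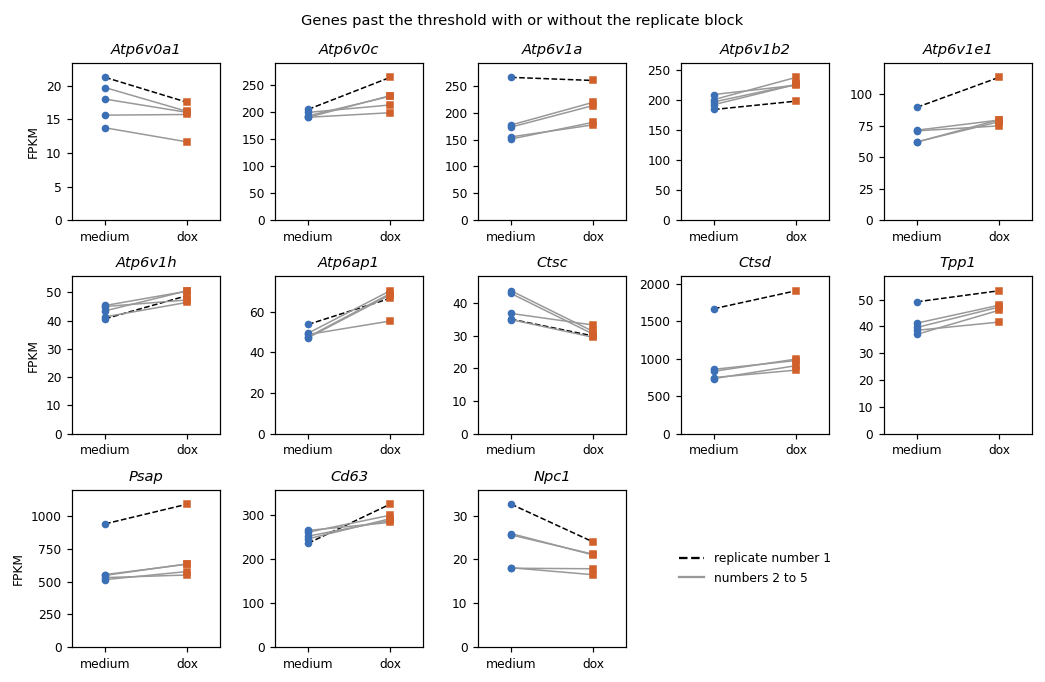
FPKM of the 13 genes past the threshold in the fit with or without the replicate block, with medium on the left and doxorubicin on the right and lines joining libraries of 1 replicate number (number 1 dashed). Each vertical axis starts at 0, and the slopes are shallow next to the distance between number 1 and the other numbers for Ctsd, Psap and Atp6v1a.

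Among the cathepsins, 1 of 7 tested genes rose and 1 fell with the block, and 0 of 7 passed without it. Of all genes, 7.81% rose and 13.7% fell with the block. Ctsd was at 1667, 749, 736, 859 and 833 FPKM in medium and at 1906, 848, 907, 976 and 995 with doxorubicin. Number 1 had about 2 times the level of the other numbers in both groups, while the difference within a number stayed between 0.18 and 0.30 (0.22 over all libraries, SE 0.26, limma adjusted p = 0.707; SE 0.04 and adjusted p = 0.00871 with the block). The blocked call was lost without number 5 (0.0516), and the estimate without the block was 0.016 without doxorubicin 1 and 0.44 without medium 1. Ctsc encodes cathepsin C, the dipeptidyl peptidase that activates serine proteases of immune cells. It stood at 35.1, 43.0, 35.0, 43.8 and 36.8 FPKM in medium and at 29.9, 30.5, 29.5, 31.3 and 33.3 with doxorubicin. All 5 doxorubicin libraries lay below all 5 medium libraries, which was so for 3.97% of all genes (-0.31, SE 0.08, limma adjusted p = 0.102; 0.0133 with the block; 0.0417 without both number 1 libraries). Its blocked call was lost without number 4 (0.0611). Ctsb (0.12), Ctsl (0.10), Ctsz (0.03), Ctss (0.02) and Ctsa (-0.02) did not pass either fit. Ctsl, the cathepsin L gene, differed by 0.39 in number 1 and by -0.05 to 0.10 in numbers 2 to 5. Ctsh, not tested, had means of 0.833 ± 0.525 and 1.09 ± 0.408 FPKM.

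Of the 2 other peptidase genes, 1 rose with the block, beside 7.81% of all genes. That was Tpp1, which encodes the tripeptidyl peptidase lacking in a childhood neuronal ceroid lipofuscinosis. It was at 49.2, 38.6, 37.1, 41.2 and 39.6 FPKM in medium and at 53.3, 41.6, 46.0, 47.9 and 47.2 with doxorubicin, higher in 5 of 5 numbers (0.20, SE 0.09, limma adjusted p = 0.278; 0.0238 with the block). The blocked call was lost without number 3, 4 or 5 (0.0776, 0.0896 and 0.0975). Lgmn was at 409, 298, 295, 379 and 373 FPKM in medium and at 352, 286, 315, 373 and 384 with doxorubicin (-0.03, limma adjusted p = 0.925; 0.697 with the block). Its level was lower in numbers 2 and 3 than in the rest in both groups.

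None of the 6 glycosidase genes passed either fit, with a median of 0.05 (range -0.15 to 0.31); 1 had an unadjusted p under 0.05 in the main fit. That was Gusb, the beta-glucuronidase gene, at 127, 180, 178, 176 and 150 FPKM in medium and at 212, 183, 201, 198 and 201 with doxorubicin. All doxorubicin libraries lay above all medium libraries, which was so for 2.73% of all genes. Gusb differed within numbers 1 to 5 by 0.74, 0.03, 0.17, 0.17 and 0.42 (0.31 over all libraries, SE 0.10, limma adjusted p = 0.154; 0.0501 with the block). It was called higher in the blocked fit without both number 1 libraries (0.20, 0.0340). Gusb thus lay just outside the threshold of the blocked fit and Atp6v0a1 (0.0497) just inside it. Glb1, which encodes the beta-galactosidase behind the senescence stain, was at 24.1, 15.3, 15.8, 16.9 and 16.6 FPKM in medium and at 23.7, 16.8, 18.1, 19.1 and 17.5 with doxorubicin. Its within-number differences were -0.02, 0.13, 0.18, 0.17 and 0.08 (0.11 over all libraries, SE 0.13, limma adjusted p = 0.714; 0.149 with the block), and it was called higher only in the fit without both number 1 libraries with the block (0.14, 0.0405), among all the settings tried. Hexa, the gene of the hexosaminidase alpha chain, was lower in 5 of 5 numbers (-0.15, adjusted p = 0.660; 0.143 with the block), from -0.46 in number 1 to -0.03 in number 5. Gla (-0.03), Gaa (-0.01) and Neu1 (0.10), for the alpha-galactosidase, acid alpha-glucosidase and sialidase, had blocked adjusted p of 0.665, 0.921 and 0.197.

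Of the 5 genes for lipid breakdown, Psap rose with the block (beside 7.81% of all genes) and the other 4 did not pass. Psap was at 942, 531, 516, 554 and 548 FPKM in medium and at 1092, 551, 578, 633 and 636 with doxorubicin, with number 1 far above the rest in both groups and a rise of 0.05 to 0.21 within each number (0.17 over all libraries, SE 0.21, limma adjusted p = 0.731; 0.0254 with the block). Without doxorubicin 1 alone, which leaves the high medium 1 library in its group, the estimate was -0.01, and without medium 1 it was 0.33. The blocked call was lost without number 3, 4 or 5 (0.0678, 0.102 and 0.109). Lipa, the acid lipase gene, was higher in numbers 2 to 5 and lower in number 1 (-0.16), with an estimate of 0.14 (limma adjusted p = 0.408; 0.135 with the block) that became 0.22 without both number 1 libraries (0.0768; 0.00284 with the block). Smpd1 (-0.11), the palmitoyl thioesterase gene Ppt1 (-0.03) and the acid ceramidase gene Asah1 (0.02) had blocked adjusted p of 0.298, 0.632 and 0.823.

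Among the 7 membrane proteins and cholesterol carriers, 1 gene rose and 1 fell with the block, beside 7.81% and 13.7% of all genes. Cd63, the gene of a tetraspanin of late endosomes and secreted vesicles, was at 237, 262, 247, 253 and 266 FPKM in medium and at 326, 300, 292, 289 and 284 with doxorubicin. The groups did not overlap, and 2.73% of all genes were higher with no overlap. The Cd63 difference was largest in number 1 (0.46, against 0.10 to 0.24 in numbers 2 to 5; 0.24 over all libraries, SE 0.06, limma adjusted p = 0.0977; 0.0208 with the block; 0.0391 without both number 1 libraries). Its blocked call was lost without number 3 or 4 (0.0595 and 0.0664). Npc1, the gene of the membrane protein that passes cholesterol out of the lysosome, was at 32.6, 18.1, 18.0, 25.9 and 25.6 FPKM in medium and at 24.0, 16.5, 17.9, 21.0 and 21.2 with doxorubicin. It was lower in 5 of 5 numbers, by 0.43 in number 1 and by 0.01 in number 3 on the log2 scale (-0.22 over all libraries, SE 0.16, limma adjusted p = 0.514; 0.0420 with the block). The blocked call was lost without number 2, 4 or 5 (0.0638, 0.134 and 0.130), and the estimate without the block was -0.11 without medium 1. Its partner Npc2, the soluble cholesterol carrier of the lumen, had means of 88.8 ± 12.1 and 98.8 ± 6.59 FPKM (0.16, limma adjusted p = 0.381, and 0.0653 with the block). It was called higher without both number 1 libraries (0.21, 0.0376).

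Lamp1 was at 350, 306, 297, 316 and 314 FPKM in medium and at 388, 317, 320, 321 and 325 with doxorubicin, higher in 5 of 5 numbers by 0.02 to 0.15 (0.08 over all libraries, SE 0.07, limma adjusted p = 0.635; 0.195 with the block). Lamp2 (0.02) and Scarb2 (-0.04), the receptor that carries glucocerebrosidase, had blocked adjusted p of 0.796 and 0.559. Mcoln1, the gene of the calcium channel TRPML1, was at 21.2, 13.6, 12.9, 17.6 and 16.6 FPKM in medium and at 18.3, 14.2, 13.7, 14.2 and 15.6 with doxorubicin (-0.09, limma adjusted p = 0.779; 0.351 with the block). Its difference was below 0 in numbers 1, 4 and 5 and above 0 in numbers 2 and 3.

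The genes of the transcription factors did not pass either fit over all libraries. Tfeb was at 14.0, 5.46, 5.12, 6.26 and 5.46 FPKM in medium and at 8.88, 5.15, 5.53, 5.51 and 5.32 with doxorubicin. Medium 1 had over 2 times the level of any other medium library, and the within-number differences were -0.61 in number 1 and -0.16 to 0.10 in the others (-0.15 over all libraries, SE 0.24, limma adjusted p = 0.792; 0.259 with the block). Tfe3 had a median of 21.6 FPKM in medium, against 5.46 for Tfeb. It was at 17.7, 21.6, 21.3, 24.5 and 25.9 FPKM in medium and at 18.9, 19.2, 21.5, 19.5 and 20.4 with doxorubicin. Its differences in numbers 4 and 5 were -0.32 and -0.34, and those in numbers 1, 2 and 3 were 0.09, -0.17 and 0.01 (-0.14 over all libraries, SE 0.09, limma adjusted p = 0.460; 0.178 with the block). Tfe3 was called lower in the blocked fit without both number 1 libraries (-0.20, 0.0356) and with library quality weights (-0.27, 0.00320). Messenger RNA does not report where in the cell these factors are. Grn, whose product progranulin is cut into granulins in the lysosome, was at 324, 280, 291, 378 and 371 FPKM in medium and at 320, 298, 328, 335 and 346 with doxorubicin (-0.01, limma adjusted p = 0.977; 0.934 with the block), with differences of 0.09 and 0.17 in numbers 2 and 3 and of -0.18 and -0.10 in numbers 4 and 5.

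**Figure D4:**
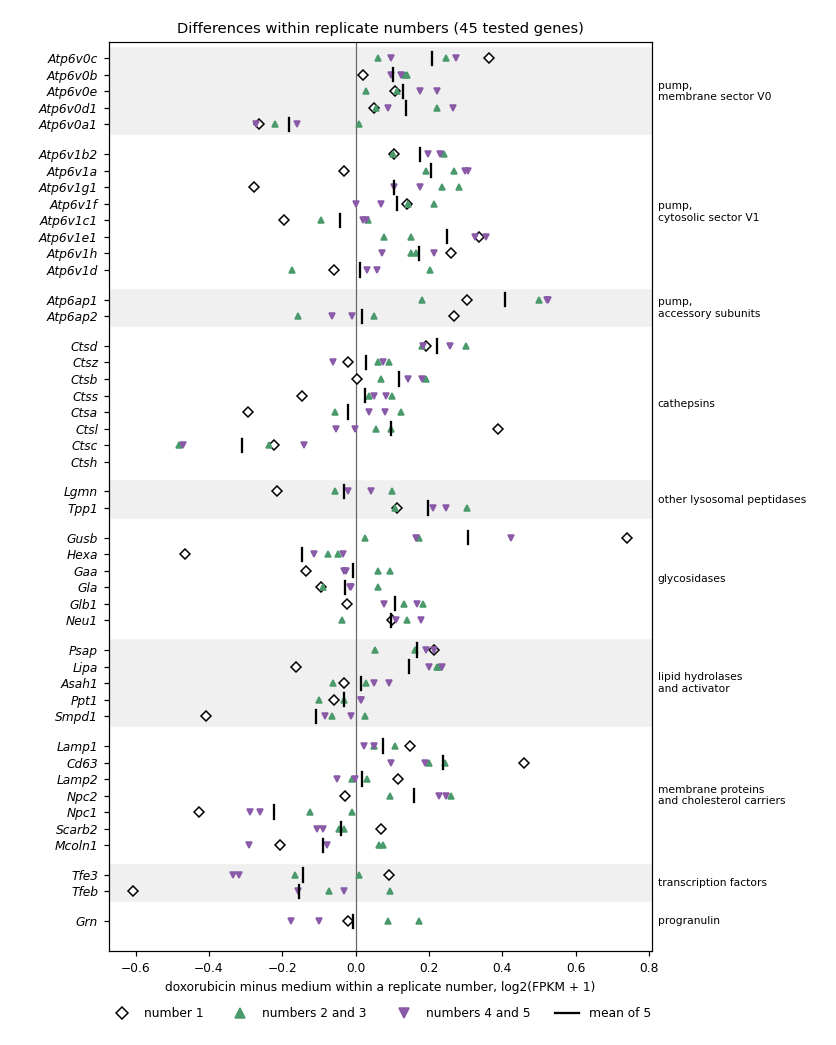
Doxorubicin minus medium within each replicate number, log2(FPKM + 1), for the 45 tested genes, with number 1 as open diamonds, numbers 2 and 3 as upward triangles, numbers 4 and 5 as downward triangles and the mean of 5 as a bar. Atp6ap1 has the highest mean (0.41) and Ctsc the lowest (-0.31), and for Gusb, Hexa, Tfeb and Smpd1 number 1 lies far from the other numbers.

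The 7 genes with TCACGTGA in the promoter windows above had a median difference of 0.13 (range -0.09 to 0.22). The 31 tested genes with a promoter and no such match had a median of 0.03 (range -0.31 to 0.41). With the block, 2 of the 7 and 8 of the 31 passed. The 7 include Atp6v0d1, Atp6v0e and Atp6v1a of the pump, whose 15 genes had a median of 0.13. Atp6ap1, the gene with the largest difference, was among those without a match. These figures are a description, and the sets were not compared by a test.

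Beyond the 46, a list of 111 other lysosomal genes in the table was drawn up by role, and 93 of them were tested. In the main fit 0 of the 93 passed by limma, with 15 higher and 6 lower at an unadjusted p below 0.05, where 653 and 1104 of all 9869 genes lay. The exact permutation test, whose p cannot go below 0.00794, called 0 of all genes and so says nothing of these 93. With the block 16 were higher and 6 lower (beside 7.81% and 13.7% of all genes), and their median difference was 0.00. The largest rise was that of Atp6v0d2, an isoform of subunit d known from osteoclasts and macrophages, from 4.93 ± 1.76 to 9.24 ± 2.26 FPKM (0.80, limma adjusted p = 0.0971; 0.00251 with the block). Rnasek, whose product associates with the pump, went from 50.5 ± 7.04 to 69.5 ± 5.55 FPKM with no overlap between the groups (0.46, limma adjusted p = 0.0602; 0.00251 with the block). Of all genes, 2.73% were higher with no overlap.

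All 4 tested genes for inhibitors of cathepsins and related proteases rose with the block (beside 7.81% of all genes), and 0 of 4 passed without it. The cystatin B gene Cstb went from 366 ± 63.5 to 457 ± 58.6 FPKM (0.33, limma adjusted p = 0.197, and 0.00737 with the block). The cystatin F gene Cst7 was at 2.02 ± 0.998 and 4.02 ± 2.27 (0.69; 0.00228 with the block), and Serpinb6a was at 136 ± 17.3 and 166 ± 16.04 (0.29; 0.00599 with the block). The remaining 1 of the 4 is the cystatin C gene Cst3. Medium 1 was the highest medium library and doxorubicin 1 the highest doxorubicin library for Cstb, Cst7 and Serpinb6a.

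Of 9 genes listed for sorting new hydrolases to the lysosome, most by a mannose 6-phosphate tag, 3 rose and 1 fell with the block. All counts in this paragraph stand beside 7.81% of all genes called higher and 13.7% lower with the block. Sort1, the gene of a sorting receptor that does not use the tag, was among those that rose (0.24; 0.0175 with the block). Gnptab, which encodes the enzyme that starts the tag, was at 16.4 ± 1.82 and 20.3 ± 1.61 FPKM (0.29, limma adjusted p = 0.132; 0.0230 with the block). Igf2r, a receptor for the tag, was at 98.8 ± 6.33 and 120 ± 12.9 (0.27; 0.00631 with the block), and Gga1, a coat adaptor for the receptors, fell from 26.6 ± 3.21 to 21.4 ± 1.48 (-0.30; 0.0101 with the block). Of 31 other hydrolase genes, 4 rose and 3 fell with the block. Each of the 7 went the same way in 5 of 5 numbers, but they were picked by the blocked fit, so this adds no support. Of all genes, 13.2% were higher and 23.1% lower in 5 of 5 numbers. The 4 hydrolase genes that rose included the mannosidase gene Man2b1 (0.24), the fucosidase gene Fuca1 (0.19) and the aspartylglucosaminidase gene Aga (0.24), with no overlap between the groups. The other was the cathepsin K gene Ctsk (0.33), with overlap. Of all genes, 2.73% were higher with no overlap, and these 4 were picked by the blocked fit. The largest difference of the list was the fall of Naglu, which encodes a glucosaminidase of heparan sulfate breakdown, from 35.7 ± 12.01 to 23.5 ± 4.39 FPKM (-0.55, limma adjusted p = 0.201; 0.00656 with the block). Medium 1 was its highest library, at 54.9 FPKM. The arylsulfatase A gene Arsa also fell (-0.26, with a blocked adjusted p of 0.0401). Of 22 other membrane protein genes 1 rose, Laptm5 (0.29, 0.00445 with the block), and 2 fell, Cln3 (-0.21, 0.0157) and the proton and potassium channel gene Tmem175 (-0.24, 0.0233). Of 14 genes for the docking of mTORC1, 1 rose with the block, Lamtor4, a part of the Ragulator scaffold (0.22, 0.0402).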

How the data were processed

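Poly(A) RNA-seq libraries of RAW264.7 cells, 5 in medium and 5 with doxorubicin, were compared. The authors deposited FPKM values, 1 column per library, matched by library name to the labels. Per the submitters' processing notes the genome build is GRCm39. Aligner, quantifier, annotation and gene filters are not given in the sources used here. Deposited FPKM carry no read totals, so depth is unknown and no counting interval is given. Promoters came from RefSeq on another build, GRCm38.p6, and were matched by symbol only.

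Values were analysed as log2(FPKM + 1), which understates changes near 1 FPKM. The 9869 of 22186 genes whose mean reached 1 FPKM were tested with limma 3.58.1 (R 4.3.3). The model held the group alone, with a trended variance, and Benjamini-Hochberg adjusted p below 0.05 was a call. The code was tested on simulated data, with changes larger than any seen among the lysosomal genes and independent effects for each replicate number. Those data do not show how well smaller changes are recovered, or how a block does where numbers move together. A second fit took the replicate number, given in the sample titles, as a block: deviations of same-numbered libraries from their group means correlated at 0.524 to 0.795, and those of different numbers at -0.609 to 0.692. The highest of the latter joined numbers 2 and 3, and 4 and 5.

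Values in every library are given for genes past the threshold in either fit, the highest gene of each role, the gene with the smallest p in roles without a call, and Tfeb, Tfe3, Lamp1, Ctsd, Glb1, Mcoln1 and Grn. From each other list, up to 3 called genes with the smallest p in the fit without the block are named. Isoform genes, Cst3, Ctsk, Naglu, Arsa and Sort1 were named with their values known. The members, lists and motifs were chosen with earlier results of these data known. Alternatives were another pseudocount, other filters, 2 scalings, library weights, an exact permutation test, the replicate block and libraries left out.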

Additional observations from a re-analysis of the deposited data

Results flagged for a closer look

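Each of the 46 genes was checked in each group of 5 libraries for 1 library far from the other 4 on the log2 scale, by Dixon's ratio with a critical value of 0.71. Of the 92 checks 28 stood out, where chance gives about 1 in 20, and 26 of the 28 were in a library of replicate number 1. In medium 1 the highest values were those of Atp6v0d1 (87.2 FPKM), Atp6v1a (266), Atp6v1g1 (215), Ctsa (339), Ctsb (972), Ctsd (1667), Glb1 (24.1), Gaa (49.9), Neu1 (13.3), Smpd1 (6.54), Psap (942), Ppt1 (18.8), Npc2 (110) and Tfeb (14.0), and the lowest were those of Atp6ap2 (32.8), Ctsl (155) and Scarb2 (12.3). In doxorubicin 1 the highest were Atp6v1e1 (113 FPKM), Ctsd (1906), Ctsh (1.81), Gaa (45.3), Neu1 (14.3), Psap (1092), Lamp1 (388) and Tfeb (8.88), and the lowest was Scarb2 (12.95). Ctsd, Gaa, Neu1, Psap, Scarb2 and Tfeb stood out in both. The other 2 were the low values of Atp6v0a1 in doxorubicin 2 (11.6 FPKM, against 15.7 to 17.5) and of Atp6ap1 in doxorubicin 3 (55.4 FPKM, against 66.5 to 70.2).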

How the results depend on the processing

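The number of calls depended on how replicate number and library 1 were treated. Over all genes the main count of 90 became 57 with a mean of at least 5 FPKM, 2127 with the replicate block, 556 without both number 1 libraries, 2827 without them and with the block, 3681 with library quality weights and 0 by exact permutation, which cannot give a p below 0.00794 (681 genes higher and 1083 lower at an unadjusted p below 0.05). Of the lysosomal genes, 10 were higher and 3 lower with the block, 5 and 1 without both number 1 libraries, 19 and 3 without them and with the block, 14 and 3 with weights, and 0 were higher by permutation. Of the other lysosomal genes the counts were 16 and 6 with the block, 9 higher without both number 1 libraries, 18 and 14 without them and with the block, and 22 and 14 with weights. Of all 9869 genes, 771 were higher and 1356 lower with the block, and 283 and 273 without both number 1 libraries. The counts were 1010 and 1817 without them and with the block, and 1379 and 2302 with weights. Settings chosen after seeing the data were 3 blocks (3168 genes called, 17 and 2 lysosomal genes, 22 and 14 others) and the block without both libraries of 1 number. The latter gave, without number 2, 1549 genes called, 9 and 1 lysosomal genes and 16 and 5 others. Without number 3 it gave 1300, 3 and 3, and 9 and 6. Without number 4 it gave 637, 2 and 0, and 9 and 1. Without number 5 it gave 628, 2 and 1, and 8 and 1. Leaving out 1 library gave 15 to 226 calls over all genes, 0 to 1 lysosomal genes higher, 0 to 1 lower, 0 to 3 other lysosomal genes higher and 0 to 0 lower. The median difference of the lysosomal genes was then 0.019 (without doxorubicin 1) to 0.12 (without medium 1). Signs turned in some settings, for 9 lysosomal genes without medium 1, and not only for genes near 0. Psap and Tfeb, at 0.17 and -0.15 over all libraries, also turned when 1 library was left out. Lgmn was 0.016 without both number 1 libraries, with or without the block. Grn was 0.022 with median-ratio scaling and 0.035 and 0.016 in the blocked fits without number 4 and number 5. With 1 library left out, Lgmn ran from -0.090 (without medium 3) to 0.032 (without doxorubicin 2), Ctsd from 0.016 (without doxorubicin 1) to 0.44 (without medium 1), Psap from -0.0061 (without doxorubicin 1) to 0.33 (without medium 1), Mcoln1 from -0.16 (without medium 3) to 0.0061 (without medium 1), Tfeb from -0.28 (without doxorubicin 1) to 0.085 (without medium 1) and Grn from -0.062 (without medium 2) to 0.046 (without medium 4). With both number 1 libraries left out and no block, Ctsd was 0.23, Psap 0.16, Mcoln1 -0.059, Tfeb -0.042 and Grn -0.0040. The cause of these shifts was not tested. The unknown depth limits what can be said of low genes such as Ctsh.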
